A study of Mus musculus with 6 samples.

Results

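A set of 9 red cell genes was followed through 6 mouse liver RNA libraries: the alpha globin genes Hba-a1 and Hba-a2, the beta globin genes Hbb-bs and Hbb-bt, and Alas2, Slc4a1, Klf1, Gata1 and Hemgn. They were taken by name from a table of 30889 genes, and each name matched 1 row, so all 9 were found. Of these, 6 were set apart as genes of mature red cells (the 4 globins, Alas2 and Slc4a1) and 3 as genes of red cell precursors (Klf1, Gata1 and Hemgn). The control group holds 3 libraries of liver from mice that received phosphate buffer saline, and the extract group 3 libraries from mice that received the water extract of Emilia sonchifolia, a herb of the daisy family, both by mouth over 14 days. Strain, age, sex, dose and any perfusion of the liver are not named in the labels. Nor do they tie each library to its own animal, so the spread behind every p-value is that of libraries and may be technical.

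Haemoglobin is a tetramer of alpha and beta globin chains, each holding a haem group. Red cells are made in the marrow of adult mice, where GATA1 and KLF1 switch on the globin genes, ALAS2 starts haem synthesis and band 3, the product of Slc4a1, is placed in the membrane. Young circulating red cells, the reticulocytes, have lost the nucleus but keep globin mRNA, so globin transcripts in adult liver are usually read as blood held in the organ. In such bulk tissue, fewer cells of a type and less RNA per cell cannot be told apart.

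Libraries held 51219533 to 61432016 estimated counts. The hepatocyte genes marked the tissue as labelled, with albumin (Alb) at 25373 to 33353 FPKM (fragments scaled for transcript length and library depth). Control 3 stood apart from the other controls in part of the blood cell transcripts. Of 19 red cell membrane genes with at least 30 counts over the controls, 14 were in control 3 under 0.5 times the lower of controls 1 and 2, as were 996 of 18406 genes in the whole table (5.41%). The same held for 6 of 20 neutrophil and monocyte genes, 5 of 13 platelet genes and 4 of 20 lymphocyte genes. It held for 2 of 20 erythroid regulators, 2 of the 3 precursor genes and Slc4a1, but for only 1 of 17 late maturation genes. None of the 4 globins or of the 15 hepatocyte genes were so low in control 3. That threshold was chosen after the values were seen, and it looks only for strongly lower values. Control 3 was the highest control for Lcn2, which hepatocytes also make (269, 307 and 401 FPKM in controls 1 to 3). The summed Kupffer cell and red cell clearance genes were at 7891, 8774 and 10869 FPKM in controls 1 to 3. For the summed hepatocyte genes the values were 62078, 59972 and 52314 FPKM. Named calls that were lost without control 3 are given with their values without it.

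The 4 globin genes come as 2 pairs of close copies, and their sequences are shown because they limit what each copy's value means. In the GENCODE M21 transcripts, the coding sequences of Hba-a1 and Hba-a2 (426 bases each) differ at 1 base, C381T, counted from the A of the start codon, with the Hba-a1 base first. Those of Hbb-bs and Hbb-bt (441 bases each) differ at 1 base too, C417T, with the Hbb-bs base first. The stretches of 90 coding bases that end at these positions follow, with the differing base in capitals.
Hba-a1: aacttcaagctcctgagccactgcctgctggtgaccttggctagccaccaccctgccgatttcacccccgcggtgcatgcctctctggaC
Hba-a2: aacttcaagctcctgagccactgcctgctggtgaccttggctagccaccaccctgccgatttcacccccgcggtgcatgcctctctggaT
Hbb-bs: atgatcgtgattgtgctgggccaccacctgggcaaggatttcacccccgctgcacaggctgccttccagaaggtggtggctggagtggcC
Hbb-bt: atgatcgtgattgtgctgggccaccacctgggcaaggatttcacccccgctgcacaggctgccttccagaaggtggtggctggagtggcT
The longest run shared by the whole transcripts was 415 bases for the alpha pair and 430 bases for the beta pair, against 14 bases between Hba-a1 and Hbb-bs. Reads inside those runs cannot be assigned to 1 copy, so the value of a single copy is uncertain, and the summed alpha or beta value is the firmer one.

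The start of each globin gene is shown as well, and its part in any change of the 4 transcripts was not tested. These are the 120 bases just before the RefSeq transcription start on GRCm38.p6, at chr11:32283552-32283671 (plus strand) for Hba-a1, chr11:32296372-32296491 (plus strand) for Hba-a2, chr7:103827929-103828048 (minus strand) for Hbb-bs and chr7:103813924-103814043 (minus strand) for Hbb-bt. The RefSeq starts differ from the annotated gene spans. The Hba-a1 window lies inside the deposited span of that gene (from 32283511). Those of Hba-a2 and Hbb-bt overlap the start of theirs (at 32296489 and 103813996). The Hbb-bs window lies within the GENCODE M21 span (up to 103828096). Capitals mark matches, on either strand, to the letters of the CACCC box (CACCC or CCNCNCCC), the CCAAT box, the TATA box (TATAA or the longer TATAAA and the shifted ATAAAA) or the GATA motif (AGATAA or the variant TGATAA).
Hba-a1: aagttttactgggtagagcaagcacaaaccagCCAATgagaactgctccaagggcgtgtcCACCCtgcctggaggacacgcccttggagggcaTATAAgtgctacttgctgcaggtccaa
Hba-a2: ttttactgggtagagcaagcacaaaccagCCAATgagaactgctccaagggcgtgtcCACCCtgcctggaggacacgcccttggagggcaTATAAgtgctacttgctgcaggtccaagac
Hbb-bs: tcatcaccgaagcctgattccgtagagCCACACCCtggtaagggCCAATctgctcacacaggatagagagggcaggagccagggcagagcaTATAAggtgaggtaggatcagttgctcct
Hbb-bt: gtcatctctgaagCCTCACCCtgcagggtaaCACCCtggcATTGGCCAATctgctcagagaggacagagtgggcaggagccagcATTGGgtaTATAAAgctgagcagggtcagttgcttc
The alpha windows share a run of 117 bases, and the beta windows one of 14 bases. All 4 hold a match to CACCC, one to CCAAT and one to TATAA. In the full 300-base windows of all 32851 RefSeq promoters given, CACCC was found in 57.5%, CCAAT in 37.4%, TATAA in 24.9% and CCNCNCCC in 49.5%. The GATA letters AGATAA and TGATAA were in 11.2% and 9.05%, and the longer TATAAA and ATAAAA in 13.6% and 18.5%. Of the 9 red cell genes, 8 had an entry (all but Slc4a1). In them CACCC was found in 7, TATAA in 6, CCAAT and CCNCNCCC in 5 each, TGATAA in 4 and AGATAA in 3. The CACCC letters can overlap those of CCNCNCCC, and the TATAA letters lie within the longer TATAAA. These shorter forms were added after the sequences had been read. A match is a description of these letters, not a site of binding.

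All 6 genes of mature red cells were lower with the extract, but by very unequal amounts. The 4 globins fell 6.22- to 7.58-fold, Slc4a1 was close to absent, and Alas2 fell 1.23-fold. Of the precursor genes, Klf1 and Gata1 were not called, and Hemgn was not tested in this fit, though it was called lower in 3 of the 6 alternatives that tested it. edgeR tested 8 of the 9 and called 6 lower and 0 higher, where it called 12.8% of the 18071 genes tested lower and 26.9% in either direction. In 6 of the 9, every extract library lay below every control library, which held for 26.9% of all genes tested (4863 of 18071). The median log2 fold change of the 8 tested was -2.64, against -0.02 for all genes tested. It lies between the values of Hbb-bs and Hbb-bt. Since the 4 globins are 2 pairs of close copies, they are not 4 separate signals in this median or in the counts above.

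**Figure D1:**
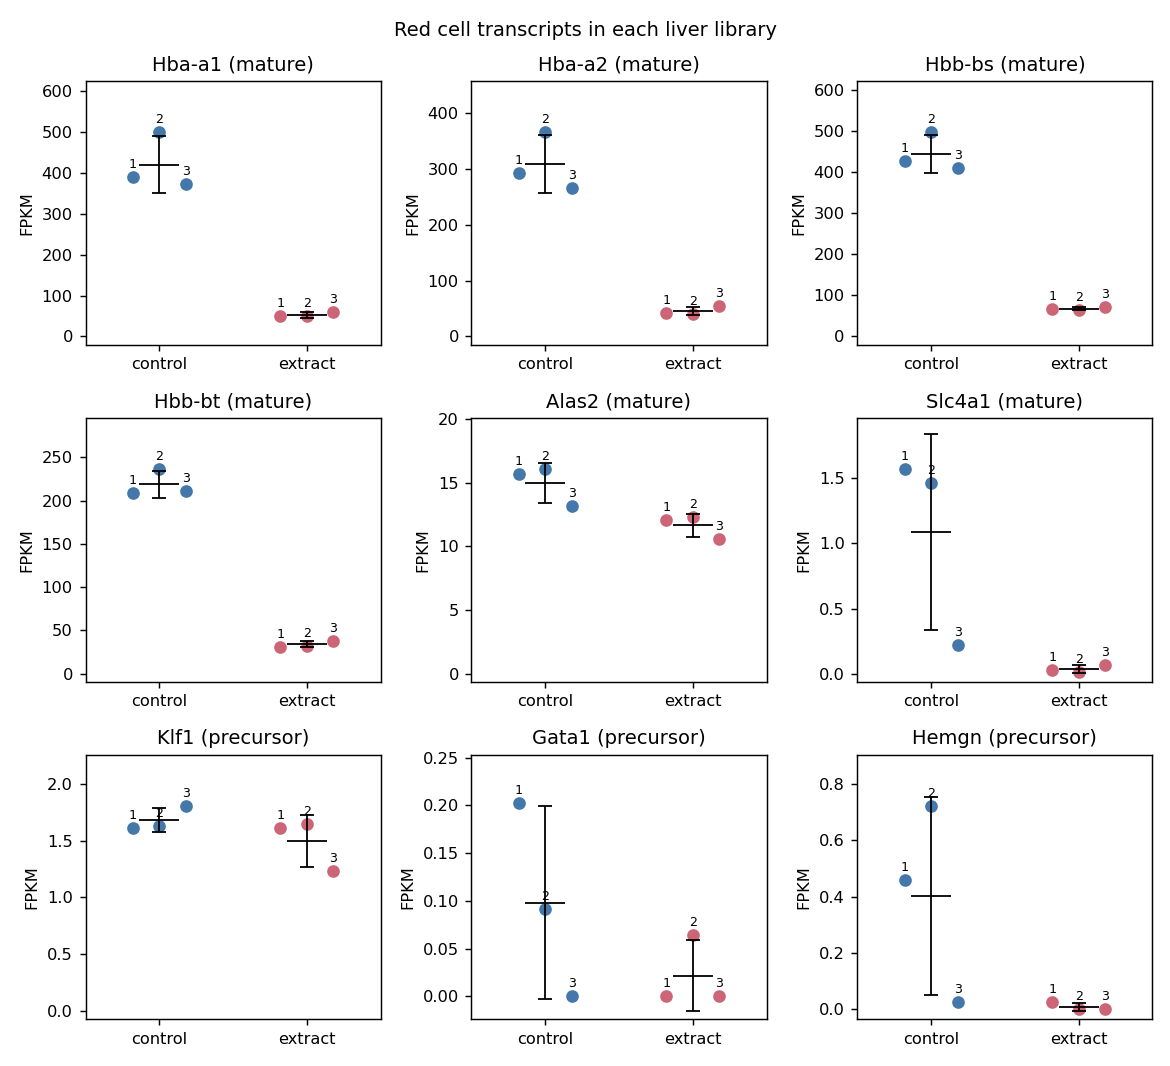
FPKM (y axis, linear, each panel on its own scale) of the 9 red cell genes in 3 control and 3 extract libraries, with the replicate number over each point; the horizontal bar is the mean and the vertical bar the SD. The globin groups lie far apart, Alas2 differs slightly, and for Slc4a1, Gata1 and Hemgn control 3 sits below controls 1 and 2.

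Hbb-bs, the more abundant adult beta globin gene (ENSMUSG00000052305, chromosome 7, 103826534 to 103827928, minus strand, protein coding), was at 427, 498 and 410 FPKM in controls 1 to 3 and at 66.7, 64.3 and 72.8 FPKM in extract 1 to 3. The groups did not overlap. edgeR put the log2 fold change at -2.65 ± 0.08 (SE), with an adjusted p of 3.26e-06. Hbb-bt, the second adult beta globin gene (ENSMUSG00000073940, chromosome 7, 103812524 to 103813996, minus strand), was at 209, 236 and 211 FPKM in the control libraries and at 31.2, 32.1 and 37.7 FPKM with the extract. The fitted difference was -2.64 ± 0.09 on the log2 scale (SE, adjusted p = 3.42e-06 with edgeR). Hbb-bt gave 32.2% to 34.0% of the summed beta FPKM in the controls and 31.9% to 34.1% with the extract, which overlapped.

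Hba-a1, an alpha globin gene (ENSMUSG00000069919, chromosome 11, 32283511 to 32284465, plus strand), was at 389, 499 and 372 FPKM among controls and at 49.2, 49.0 and 60.7 FPKM with the extract. It had the largest difference of the 4 globins, -2.92 ± 0.13 on the log2 scale (SE, adjusted p = 8.68e-06 with edgeR). Hba-a2, its near copy (ENSMUSG00000069917, chromosome 11, 32296489 to 32297298, plus strand), was at 293, 366 and 265 FPKM in controls 1 to 3 and at 42.3, 40.5 and 53.8 FPKM with the extract. Here the log2 difference came to -2.69 ± 0.15 (SE), and the adjusted p from edgeR to 1.92e-05. Control 2 was the highest and extract 3 the highest of its group for each of the 4 globins.

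The ratio of Hba-a1 to Hba-a2 was 1.33, 1.36 and 1.40 in the controls and 1.16, 1.21 and 1.13 with the extract, with no overlap. An exact permutation test, two-sided, gave p = 0.1, the smallest that 3 libraries against 3 can give, and 0.175 after adjustment over the 7 ratios computed. The ratio of Hbb-bt to Hbb-bs was 0.489, 0.475 and 0.515 against 0.468, 0.499 and 0.517 (exact permutation p = 0.9). Summed alpha over summed beta FPKM was 1.07, 1.18 and 1.02 in the controls and 0.934, 0.928 and 1.04 with the extract, which overlapped. With the copies of each pair added together before the fit, the log2 fold change was -2.83 for alpha and -2.64 for beta (edgeR adjusted p = 1.20e-05 and 3.17e-06). Together the 4 genes made up 0.118%, 0.144% and 0.115% of all counts in the controls and 0.0172%, 0.0166% and 0.0207% with the extract.

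**Figure D2:**
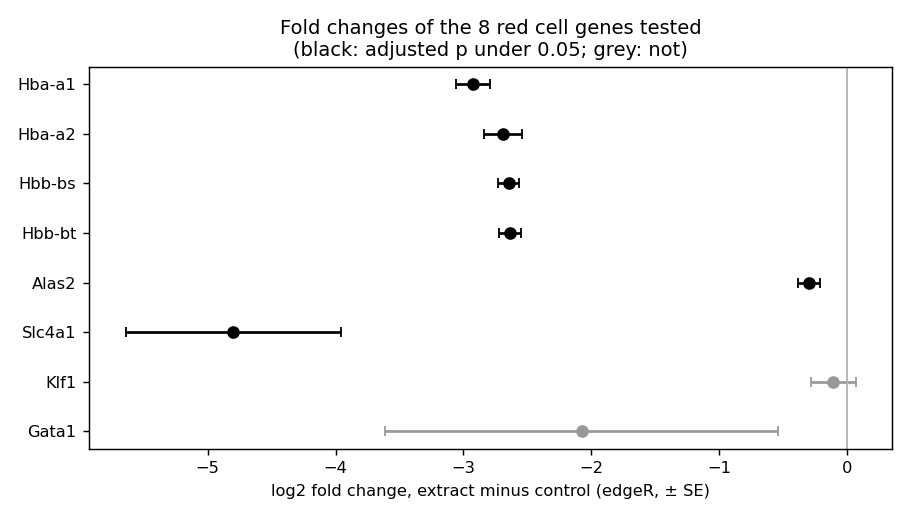
Log2 fold change, extract minus control (x axis), of the 8 red cell genes that edgeR tested, with bars of 1 SE; black points passed an adjusted p of 0.05 and grey points did not. The 4 globins cluster between -2.92 and -2.64, with Alas2 near 0 and Slc4a1 and Gata1 with wide errors.

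Alas2 encodes the erythroid form of 5-aminolevulinate synthase, the first enzyme of haem synthesis (ENSMUSG00000025270, chromosome X, 150547375 to 150570638, plus strand). It was at 15.6, 16.0 and 13.1 FPKM in control and at 12.1, 12.3 and 10.6 FPKM with the extract. The groups did not overlap, but control 3 lay close to extract 1 and 2. The difference was -0.30 ± 0.08 on the log2 scale (SE, adjusted p = 0.0334 with edgeR). This call was lost when any library other than control 3 was left out (edgeR adjusted p from 0.0704 to 0.121) and without the filter on low counts (edgeR adjusted p = 0.0589). The ratio of Alas2 to Hbb-bs in FPKM was 0.0366, 0.0322 and 0.0320 in the controls and 0.181, 0.191 and 0.145 with the extract. This ratio was 5.10 times higher with the extract, with no overlap (exact permutation p = 0.1, adjusted 0.175). It mostly restates the fall of Hbb-bs, since Alas2 itself changed little.

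Alas2 is the 1 gene of the 9 whose annotated span is overlapped by another gene in GENCODE M21, namely the DNA repair gene Apex2 on the minus strand (150519519 to 150589868) and a microRNA gene. Of 2403 exonic bases of Alas2, 311 (12.9%) also lie in an exon of Apex2, and no label says whether reads carry strand information. Apex2 itself was at 0.689, 0.796 and 0.753 FPKM in the control libraries and at 0.683, 0.724 and 0.538 FPKM with the extract (log2 difference -0.14 ± 0.13, SE, adjusted p = 0.468 with edgeR). The level listed for Apex2 was thus far below that of Alas2 in every library. The part of shared reads in the Alas2 value was not tested.

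**Figure D3:**
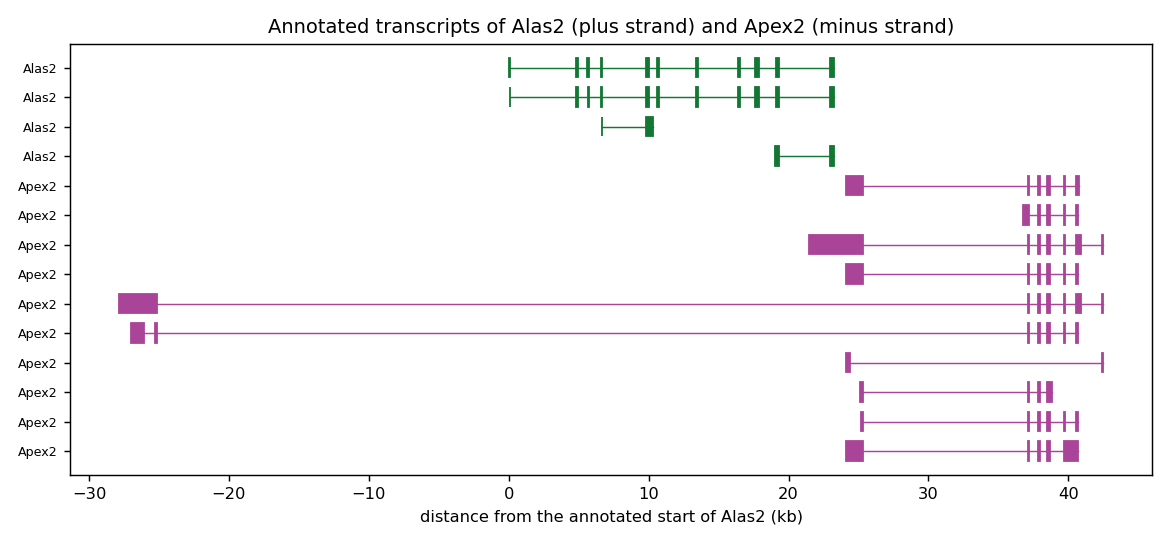
Annotated transcripts of Alas2 (green, plus strand) and Apex2 (purple, minus strand), with exons as boxes, against the distance in kb from the annotated start of Alas2 (x axis). Long Apex2 transcripts span Alas2, and 1 Apex2 transcript has a long exon that covers the last Alas2 exon, where 311 exonic bases are shared.

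Slc4a1 encodes band 3, the chloride and bicarbonate exchanger that is the main protein of the red cell membrane (ENSMUSG00000006574, chromosome 11, 102348824 to 102365280, minus strand). It was at 1.57, 1.47 and 0.220 FPKM among controls and at 0.0268, 0.0108 and 0.0693 FPKM with the extract. In counts these were 470, 529 and 69 against 9, 4 and 23. Control 3 lay far below the other controls, yet above every extract library. In the fit the difference was -4.80 ± 0.84 on the log2 scale (SE, adjusted p = 0.00448 with edgeR), and without control 3 it was -5.28 (edgeR adjusted p = 0.000376). The ratio of Slc4a1 to Hbb-bs was 0.00367, 0.00295 and 0.000535 in the controls and 0.000401, 0.000167 and 0.000952 with the extract, so that the groups overlapped through control 3 (exact permutation p = 0.2, adjusted 0.28).

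Among the precursor genes, Klf1, the factor that activates beta globin (ENSMUSG00000054191, chromosome 8, 84901928 to 84905295, plus strand), was at 1.61, 1.63 and 1.80 FPKM in controls 1 to 3 and at 1.61, 1.65 and 1.23 FPKM with the extract. The groups overlapped. The difference of -0.11 ± 0.18 on the log2 scale (SE, adjusted p = 0.696 with edgeR) had a 95% interval from -0.45 to 0.24, which leaves out a fall as large as that of the globins. Without extract 3 the value was 0.011 (edgeR adjusted p = 0.974). Unlike Slc4a1, Gata1 and Hemgn, Klf1 was highest in control 3 among the controls. The nearest coding gene, Dnase2a, lies 3269 bases away. The ratio of Klf1 to Hbb-bs was 5.78 times that of the controls with the extract, without overlap (exact permutation p = 0.1, adjusted 0.175). As Klf1 itself was not called, this ratio mostly restates the fall of Hbb-bs.

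Gata1, the master factor of the red cell and platelet lineages (ENSMUSG00000031162, chromosome X, 7959260 to 7978071, minus strand), had 31, 17 and 0 counts in the controls and 0, 11 and 0 with the extract. In FPKM this was 0.202, 0.0917 and 0.00 against 0.00, 0.0643 and 0.00. The groups overlapped, and the difference of -2.07 ± 1.54 on the log2 scale (SE, adjusted p = 0.362 with edgeR) had a 95% interval from -5.09 to 0.94, so a difference was not detectable at this depth. With 1 library left out the value ran from -7.00 (without extract 2) to -1.02 (without control 1), and it was -2.66 without control 3 (edgeR adjusted p = 0.152, 0.726 and 0.219). If each count were 1 read pair, a count of 0 would allow up to 3 counts, a bound that covers counting error only. Over the whole table low counts pile up at 4 (6292 entries, against 4117 at 3 and 2133 at 5). Single counts here may thus not be single read pairs, and the bound of 3 may be too low.

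Hemgn encodes hemogen, a nuclear protein of blood precursors (ENSMUSG00000028332, chromosome 4, 46393989 to 46413506, minus strand). It had 71, 134 and 4 counts in the controls and 4, 0 and 0 with the extract, or 0.459, 0.722 and 0.0240 FPKM against 0.0245, 0.00 and 0.00. Controls 1 and 2 were high, and control 3 lay below extract 1. The default filter of edgeR left it out, so it has no result in the main test. Without that filter its log2 fold change was -5.46 (edgeR adjusted p = 0.0446), and without control 3, where it passed the filter, it was -6.01 (edgeR adjusted p = 0.00373). DESeq2 also called it (-5.56, adjusted p = 0.0246). It was not called without extract 1, 2 or 3 (edgeR adjusted p = 0.0514, 0.0919 and 0.0764), and without control 1 or 2 it did not pass the filter.

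In order of level per length in the controls, Hbb-bs, Hba-a1, Hba-a2 and Hbb-bt came first at means of 445 ± 46.3, 420 ± 69.1, 308 ± 51.8 and 219 ± 15.2 FPKM (SD, n = 3). Among the globins, only Hbb-bs and Hba-a1 had overlapping control values. Alas2 followed at 14.9 ± 1.58 FPKM, Klf1 at 1.68 ± 0.105, Slc4a1 at 1.09 ± 0.752, Hemgn at 0.402 ± 0.352 and Gata1 at 0.0979 ± 0.101. Slc4a1 overlapped Hemgn, and Hemgn overlapped Gata1. With the extract the order began Hbb-bs, Hba-a1, Hba-a2, Hbb-bt at 68.0 ± 4.38, 52.9 ± 6.71, 45.5 ± 7.22 and 33.7 ± 3.48 FPKM, and Alas2 stood at 11.6 ± 0.935.

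A further 12 lists place these genes among other red cell and blood cell transcripts. Each list is described by its counts and its median, beside the 12.8% of all genes called lower and the 14.2% called higher. Of 20 red cell membrane and skeleton genes, 14 were tested, 5 fell, 2 rose and 7 did not pass, with a median log2 fold change of 0.09. Sptb, erythroid beta spectrin, was at 0.365, 0.396 and 0.173 FPKM in the control libraries and at 0.125, 0.126 and 0.129 FPKM with the extract, a 2.34-fold fall (edgeR adjusted p = 0.0171). Dmtn and Tspan33 were also among those that fell. Those that rose, Epb41 (1.51-fold) and Cd59a, are not restricted to red cells, and Cd59a was not called without control 3 (edgeR adjusted p = 0.0704). Whether those that fell are restricted to red cells was not tested. Tspan33 was at 1.48, 1.79 and 1.37 FPKM in controls 1 to 3 and still at 0.984, 1.08 and 0.961 FPKM in extract 1 to 3. Without control 3, 19 genes of the list passed the filter and 10 fell, with Epb42, Rhag, Rhd, Kel and Add2 joining. The number called in either direction was 7 in all libraries and 11 without control 3. It was 4 without control 1, 3 without control 2, and 1, 2 and 4 without extract 1, 2 and 3.

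**Figure D4:**
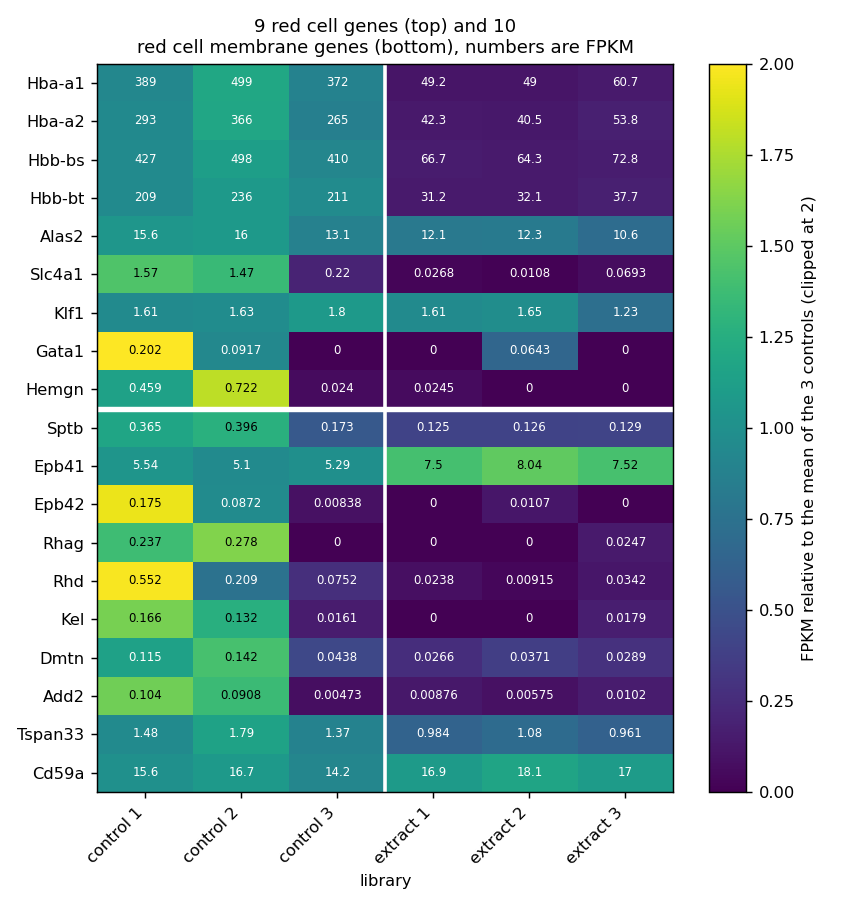
FPKM of the 9 red cell genes (above the white line) and of 10 red cell membrane genes named in the text (below it) in each library; colour gives FPKM relative to the mean of the 3 controls, clipped at 2. Slc4a1, Hemgn, Rhag, Kel and Epb42 are high in controls 1 and 2 and low in control 3 and the extract libraries, while the globins are high in all 3 controls.

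Of 18 genes of the red cell cytosol and late maturation in the table, 17 were tested, 5 fell and 3 rose, with a median of -0.25. Tent5c, a poly(A) polymerase, went from 3.29 ± 0.321 to 0.714 ± 0.0117 FPKM, a 4.40-fold fall, with control 3 at 2.94 FPKM. Trim10, a ubiquitin ligase of late red cell precursors, was at 0.466, 0.570 and 0.167 FPKM against 0.0195, 0.00 and 0.00. Ube2l6, also an interferon-stimulated gene, rose 1.51-fold. The 8 calls of this list became 5 without control 2 or without extract 2.

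Haem synthesis and iron uptake went the other way from the globins. Of 15 genes, all tested, 9 rose and 1 fell, against 14.2% and 12.8% of all genes, with a median of 0.22. Alas1, the housekeeping counterpart of Alas2 that serves the hepatocyte, was at 87.2, 87.0 and 101 FPKM among controls and at 120, 121 and 122 FPKM with the extract. Cpox and Alad, further haem enzymes, were 1.67-fold and 1.31-fold higher. Fech, which inserts the iron, rose 1.26-fold, and Tfrc, the transferrin receptor, 1.55-fold. These genes are also used by hepatocytes. Alas2 was the haem enzyme that fell beside Ppox.

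Of 20 genes of erythroid transcription and signalling, 19 were tested, 3 fell, 1 rose and 15 did not pass, with a median of -0.10. Myb, a factor of blood progenitors, went from 0.198 ± 0.0788 to 0.0565 ± 0.0239 FPKM, and Lyl1 and Ikzf1, which lymphoid and myeloid cells also use, fell 1.73-fold and 1.44-fold. Sox6 rose from 0.940 ± 0.0208 to 1.08 ± 0.0811 FPKM. Neither Myb nor Sox6 was called without control 3 (edgeR adjusted p = 0.0545 and 0.0603), where Tal1, Lyl1 and Ikzf1 were lower. The share called lower (15.8%) was near the 12.8% of all genes. The 4 calls were 0 without control 2 or extract 2, 1 without extract 1, 2 without control 1, and 3 without control 3 or extract 3. Of 16 genes of dividing cells, 3 rose, 0 fell and 13 did not pass, a share of higher calls near the 14.2% of all genes. The 3 that rose were Tpx2, Cdk1 and Top2a. Calls in this list were 0 without extract 2, and 1 without control 1 or extract 3. Without control 3, Tpx2 was called higher and Mki67 lower, and Cdk1 and Top2a were not called (edgeR adjusted p = 0.0551 and 0.103). Of the other globins, Hbq1b was at 4, 10 and 0 counts in the controls and at 0 in all 3 extract libraries. Myoglobin (Mb), a muscle protein, was at 6.31, 4.65 and 0.00 FPKM against 6.29, 0.779 and 6.67. None of the 3 tested passed with edgeR (0 by DESeq2 and 1 by limma on FPKM after adjustment). The 2 at an unadjusted p under 0.05 with edgeR went opposite ways, with log2 differences of -1.28 for Ngb and 0.33 for Cygb.

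Markers of other blood cells were lower beside the red cell genes, and their part in the result was not tested. Of 12 megakaryocyte and platelet genes tested, 6 fell and 0 rose, and their summed level was 8.73 to 14.4 FPKM in the controls and 3.62 to 4.19 FPKM with the extract. Ppbp and Pf4, chemokines stored in platelets, were at 4.75, 3.89 and 1.66 and at 3.53, 3.52 and 2.19 FPKM in the controls, against 0.370, 0.231 and 0.667 and 0.984, 0.617 and 0.916 FPKM with the extract. Control 3 was again the lowest control. Of 20 neutrophil and monocyte genes 14 fell and 0 rose (summed level 422 to 487 against 195 to 202 FPKM). Lcn2, an iron carrier that hepatocytes also make, gave most of that sum. Without it the sum was 154, 155 and 85.9 FPKM against 34.1, 31.9 and 36.3, with control 3 the lowest control. Elane and Mpo, granule enzymes made by marrow precursors, were at 5.27, 4.38 and 2.07 and at 4.54, 4.17 and 1.66 FPKM in controls 1 to 3 and at no more than 0.237 FPKM with the extract. Of 20 lymphocyte genes 11 fell and 0 rose (96.2 to 159 against 42.4 to 52.4 FPKM). The platelet calls were 3 without extract 2, and the lymphocyte calls 5 without control 2, 6 without extract 1 or 2, and 7 without control 1 or extract 3. Mast cells and eosinophils can also carry Gata1. Of 13 such genes 3 were tested, and Hdc and Prg2 fell. The mast cell genes Ms4a2 and Fcer1a were at 0 in all 6 libraries, while others had a few counts. Tpsb2 had 0 counts in each control and 7, 6 and 6 with the extract, and Cpa3 0, 8 and 0 against 9, 4 and 5. The eosinophil gene Prg2 was at 0.865, 0.478 and 0.371 FPKM in control and at 0 in the extract libraries.

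Kupffer cells, the liver macrophages that engulf old red cells, and the proteins that clear haemoglobin were also looked at. Of 20 such genes, 14 fell and 1 rose with a median of -0.54. Csf1r fell 1.87-fold and C1qa 1.72-fold. Hmox1, which opens the haem ring, was at 24.8, 24.3 and 23.0 FPKM in the control libraries and at 14.4, 14.0 and 15.3 FPKM with the extract. Haptoglobin (Hp) and hemopexin (Hpx), which bind free haemoglobin and haem in plasma, were at 3413 to 4879 and 3881 to 5409 FPKM among controls and at 3541 to 3780 and 4693 to 4891 FPKM with the extract, both overlapping. Neither Hp nor Hpx was called in the main fit (edgeR adjusted p = 0.595 and 0.406). Control 3 was the highest control for Hpx. Without control 3, Hpx was called higher, with a log2 fold change of 0.295 (edgeR adjusted p = 0.00298). Hepatocyte markers moved both ways, 5 of 15 falling and 5 rising, with a median of 0.02.

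**Figure D5:**
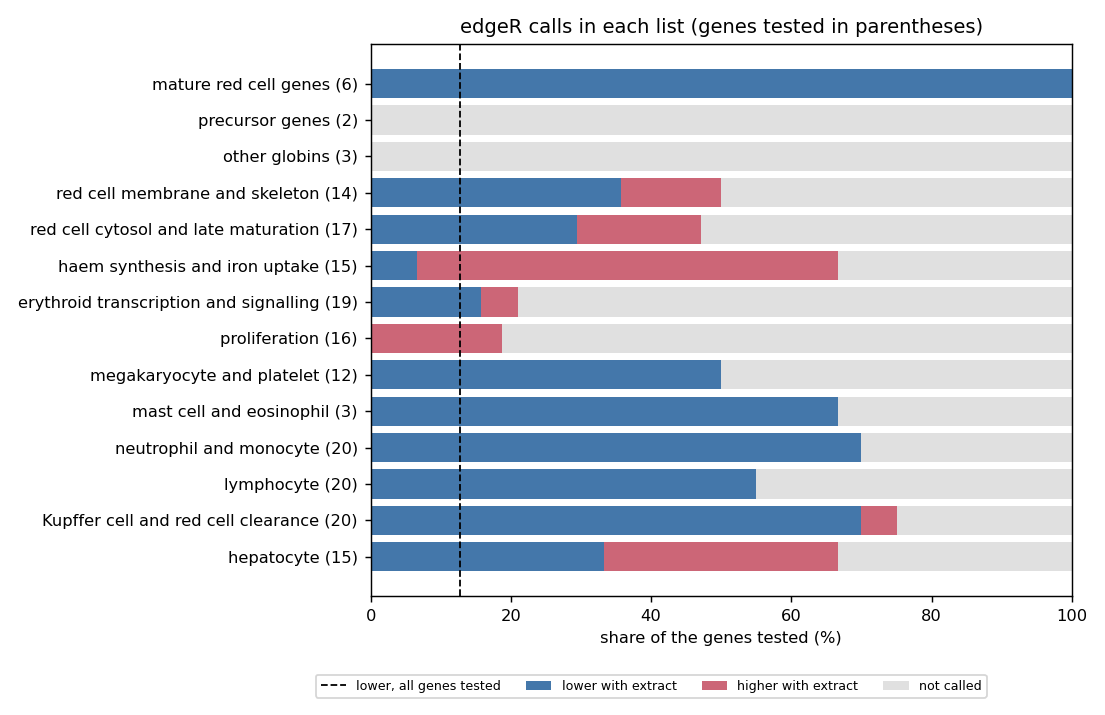
Share of tested genes (x axis, %) that edgeR called lower (blue) or higher (red) with the extract or did not call (grey), for the 9 red cell genes in their 2 classes and for 12 companion lists; the number tested stands in parentheses and the dashed line is the 12.8% of all genes called lower. Mature red cell genes are all blue, precursor genes (Klf1 and Gata1, as Hemgn was not tested) all grey, and haem synthesis mostly red.

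The genes whose profile over the 6 libraries lay closest to the mean globin profile were ranked by the distance between centred log2(FPKM + 0.5) values, among 9889 genes of at least 1 FPKM in control that are not predicted gene models. The distance was 0.14 to 0.25 for the 4 globins themselves, which is small by construction because their mean is the reference. The nearest others were the lipid droplet gene Plin4 (0.40), Guca1a (0.49), S100a9 (0.69), Ap3s1-ps2 (0.75), S100a8 (0.78), BC018473 (0.81), Mpo (0.88) and H2-Ea (0.88). Pearson's r was 0.967 to 0.995 across these 8, a description over 6 libraries that fall into the same 2 groups. S100a8 and S100a9 form calprotectin of neutrophils, and were at 19.3, 18.9 and 9.88 and at 49.7, 52.1 and 25.5 FPKM in controls 1 to 3 and at 1.71 to 3.19 and 5.72 to 7.20 FPKM with the extract. Both were lower in control 3 than in controls 1 and 2. Of the other red cell genes, Slc4a1 was at a distance of 1.98, Hemgn at 2.60, Gata1 at 3.21 and Klf1 at 3.28, with Alas2 between Hemgn and Gata1. Here the pseudocount of 0.5 shrinks the changes of genes under 1 FPKM in a group. That bears on the ranks of Plin4, Guca1a, Ap3s1-ps2, BC018473 and Mpo as well, each under 1 FPKM with the extract. Guca1a went from a mean of 3.04 FPKM in control to 0 in every extract library. For Mpo the means were 3.46 and 0.0854 FPKM, and for Plin4 8.78 and 0.710 FPKM.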

How the data were processed

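Libraries were made from liver RNA after oligo(dT) capture, per the labels' protocols. Tools listed, without roles, in the submitters' processing notes are StringTie 1.3.4d, HISAT2 2.0.4, cutadapt 1.9 and edgeR. No genome build is named there. The authors deposited whole-number estimated counts per gene, used as they are, and FPKM, scaled by them for length and depth. Another 6 columns of per-sample values match no sample and were not used. Deposited spans equal GENCODE M21 (GRCm38) for 6 of the 9 genes and differ at 1 end for 3.

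Counts of all genes were fitted with edgeR 4.0.16 in R 4.3.3 (default filterByExpr, TMM factors, quasi-likelihood test of extract against control, two-sided, Benjamini-Hochberg adjustment, threshold 0.05). The filter kept 18071 genes. SE came from the fold change and F statistic, and 95% intervals from the SE by the normal distribution. Alternatives were DESeq2 1.42.0, limma 3.58.1 on log2(FPKM + 0.1, 0.5 or 1) for genes of at least 0.5 FPKM in a group, upper-quartile factors, no filter, counts divided by 4, added copies, a replicate block and each library left out. The fit was tested on simulated data.

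The 9 genes and all lists were chosen with earlier results of these data known. From each list, up to 4 called genes with the smallest p could be named, and other list genes were named after their values were seen. Some genes of the lists are counted but not reported here by name.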

Additional observations from a re-analysis of the deposited data

How the results depend on the processing

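The 4 globins and Slc4a1 were called lower under every alternative run for them (15 for each globin, 14 for Slc4a1). The log2 fold changes of the globins ran from -3.04 to -2.56 and those of Slc4a1 from -5.66 to -0.93, the latter end with limma on log2(FPKM + 1), where the pseudocount exceeds most of its values. Alas2 kept its direction and lost its call without the filter on low counts (-0.30) and when libraries were left out in turn (-0.38 to -0.24, called only when control 3 was the one left out). Klf1 ran from -0.17 to 0.011 with libraries left out, turning positive without extract 3, and was called under none of its 14 alternatives, and Gata1 under none of its 10. Leaving out 1 library gave 5 to 7 of the 9 called, and 3237 to 4706 genes over the whole table, lowest without extract 2. As a share of summed FPKM, the globins made up 0.398% in control and 0.0596% with the extract, which weights short genes more.

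The 7 calls among red cell membrane genes were 11 with DESeq2, 4 with counts divided by 4, 3 with limma at each pseudocount (0.5, 0.1 and 1), 3 with the replicate block, and 1 to 11 with a library left out. The 4 calls among erythroid regulators were 7 with upper-quartile factors, 2 without the filter, 0 with the replicate block, and 0 to 3 with a library left out. Late maturation genes gave 5 to 8 calls with a library left out. Deviations of same-numbered libraries had correlations of -0.12, -0.03 and -0.09, and those of unlike-numbered libraries ran from -0.07 to 0.15. These values cannot tell whether libraries were collected or processed in pairs, and no label says so. The block left 3746 genes called and kept the calls of the 6 mature genes. Depth limits Gata1, Hemgn, Rhag, Kel and Epb42, at under 1 FPKM in most libraries.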
